A study of Homo sapiens with 9 samples.

Results

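The genes described here build, regulate or switch on the contractile actin and myosin apparatus. They comprise the transcription factor SRF with its coactivators, the actins, nonmuscle myosin II and its regulators, and proteins that coat, crosslink or turn over actin filaments. A list of 39 such genes was drawn up by name, with earlier results of these data known, and 34 of the 39 were measured, out of 19775 genes measured on the arrays. Each was read from the brightest probe set that named that gene alone. ACTG1, which encodes cytoplasmic gamma-actin, was represented only by probe sets that name ACTB as well and was not used, and the other 4 listed genes were not analysed here.

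RNA was taken from HT1080 cells, a single established human fibrosarcoma line, grown on deformable collagen and hybridised to 1-colour Affymetrix arrays. Collagen at 1.7 mg/ml was polymerized for 4 h, and cells adhered to it for 24 h in medium with 10% FCS before any treatment. The 3 groups, of 3 arrays each, were cells left untreated and cells given a protease inhibitor mix for 4 h or for 24 h. Both treated groups received GM6001 at 100 µM, pepstatin A at 50 µM, E64 at 250 µM, aprotinin at 2 µM and leupeptin at 2 µM, which together inhibit metallo-, aspartic, cysteine and serine proteases. The untreated arrays are labelled with a vehicle, and neither its composition nor the harvest time of those cells is given in the sources used here. The series' design text speaks of a kinase inhibitor mix. The protocol lists the protease inhibitors above, which are followed here. The design text calls the replicates biological, and all of them come from the same line and the same type of gel.

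SRF is a transcription factor that binds a short A- and T-rich element, the CArG box, flanked by CC and GG. Its coactivators MRTFA and MRTFB bind unpolymerized actin and are held in the cytoplasm by it. When actin is drawn into filaments, the coactivators are released, enter the nucleus and switch on genes for actin, myosin light chains, tropomyosins, calponins and other filament proteins. Fibrosarcoma cells use this machinery to pull on collagen fibrils and to move through them.

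Because several of these genes are known SRF targets, the RefSeq promoter windows (GRCh38.p14) were searched for the CArG box in the 250 bases before each transcription start. The box reads the same on both strands, so 1 search covers both. It was present in 7 of the 31 measured genes that had a window (22.6%), against 239 of 15384 genes measured on the array (1.55%). Over single windows the shares were 9 of 65 for the listed genes (13.8%) and 407 of 35116 for all windows (1.16%). ACTB, MYL9 and TAGLN had no entry in the sequence table. The matches are shown with flanking bases, on the gene's own strand and 5′ to 3′, with the CArG box in capitals. The list was drawn up by name and includes known SRF targets. A higher share of boxes may follow from that choice alone, and the shares were not tested. In the window, 24 of the 31 genes held no box. SRF itself carries a pair of boxes that end at the base before its start site. A match describes these letters only and is not evidence of binding.
SRF, chr6:43171214-43171268, plus strand: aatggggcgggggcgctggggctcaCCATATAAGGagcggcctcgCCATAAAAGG
MYLK, chr3:123620608-123620667, minus strand: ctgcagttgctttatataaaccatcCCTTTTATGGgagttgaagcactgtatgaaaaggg
TPM4, chr19:16067340-16067399, plus strand: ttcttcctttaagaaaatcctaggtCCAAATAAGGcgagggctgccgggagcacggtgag
CNN2, chr19:1026494-1026553, plus strand: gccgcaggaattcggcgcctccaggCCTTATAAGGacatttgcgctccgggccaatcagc
ACTN1, chr14:68977703-68977762, minus strand: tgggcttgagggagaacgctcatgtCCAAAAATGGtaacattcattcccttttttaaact
TGFB1I1, chr16:31473129-31473188, plus strand: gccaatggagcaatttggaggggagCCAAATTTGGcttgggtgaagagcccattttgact
FHL2, 1 start, chr2:105399076-105399135, minus strand: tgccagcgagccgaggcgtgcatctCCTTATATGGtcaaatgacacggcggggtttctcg
FHL2, other starts, chr2:105438580-105438639, minus strand: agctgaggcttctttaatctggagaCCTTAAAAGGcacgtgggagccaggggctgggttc

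Values are deposited linear intensities, scaled on each array to a common trimmed mean, and are given per array in the order of replicates 1, 2 and 3 or as mean ± SD (n = 3). Differences are on the log2(intensity + 16) scale, which understates the difference of dim genes. Folds are these differences turned back from log2, so they carry the same offset of 16 and are not ratios of the printed intensities. Adjusted p-values come from limma over all 19775 genes with a threshold of 0.05. With arrays scaled to a common mean, a lower value may come from fewer cells with the transcript or from less of it per cell, and these cannot be told apart.

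The arrays differed in RNA measures in the same direction as the treatment. Control probe sets read ACTB near its 5′ and its 3′ end, and the 5′ over 3′ ratio was 0.855, 0.922 and 0.902 on untreated arrays, 0.682, 0.871 and 0.615 at 4 h, and 0.71, 0.727 and 0.654 at 24 h. No 24 h array reached an untreated one (0.697 ± 0.0383 at 24 h and 0.893 ± 0.0343 untreated, exact two-sided permutation p = 0.1, the smallest that 3 against 3 arrays can give). At 4 h, replicate 2 lay among the untreated arrays and replicates 1 and 3 below them (0.723 ± 0.132 at 4 h against untreated, exact permutation p = 0.2). The added poly-A spike transcripts averaged 9.31 ± 0.0697 (log2 intensity) in untreated samples, 10.2 ± 0.215 after 4 h and 10.6 ± 0.023 after 24 h (exact permutation p = 0.1 for either treated group against untreated). Of 8 markers of mesenchymal cells 7 had a mean above 16 in every group, and NT5E averaged 5.3, 6.8 and 5.03 in untreated, 4 h and 24 h cells. In the same order VIM averaged 9681, 10439 and 11286, CD44 averaged 3634, 3584 and 4075, and LGALS1 averaged 8478, 9736 and 10564. FN1 averaged 1399, 1772 and 974, SPARC 3096, 2980 and 2484, PLAUR 1429, 1462 and 1192, and MMP14 404, 310 and 303. Of 7 smooth muscle markers, MYH11, MYOCD, CNN1 and LMOD1 had a mean below 16 over the arrays, and SMTN averaged 378, 387 and 308. Of 6 epithelial markers, 5 had a mean below 16, and KRT8 averaged 665, 602 and 392. The 4 endothelial markers summed to between 28.6 and 42 on untreated arrays, 48.2 and 64.6 at 4 h, and 65.8 and 103 at 24 h, and CDH5, KDR and VWF each had a mean below 16. No marker of any list passed the adjusted threshold at 24 h.

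After 24 h of inhibition, a group of filament-binding and contractile genes measured lower than in untreated cells, while the actins did not separate by their brightest probe sets. Of the 34 genes, 14 had every 24 h array below every untreated array (41.2%), a pattern found in 12.2% of all genes. Among the brighter genes, those above the 40th percentile of mean level, it was found in 17.3%, and 32 of the 34 listed genes belong to these. In the other direction 2 genes separated, MRTFB and MYL6 (5.88%, against 12.8% of all genes and 17.7% of the brighter ones). At an unadjusted p below 0.05, 12 of 34 were lower (35.3%, against 7.62% of all genes and 10.7% of the brighter ones) and 1 was higher (2.94%, against 8.17% and 10.9%). The 12 were the 14 without MYH9 and ARPC5. None of the 34 passed the adjusted threshold in either direction, which 0.465% of all genes did. The median log2 difference of the 34 was -0.09, with 21 below 0, beside a median of 0.01 over all genes.

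After 4 h fewer of these genes measured lower than in untreated cells, and SRF measured higher. Every 4 h array lay below every untreated array for 6 of the 34, MYL9, MYL12B, TPM1, TPM4, TAGLN2 and PFN1 (17.6%, against 8.14% of all genes and 10.8% of the brighter ones). For 1, SRF, every 4 h array lay above (2.94%, against 9.37% and 11.7%). At an unadjusted p below 0.05, 5 were lower, MYL9, MYL12B, TPM4, ACTN4 and PFN1 (14.7%, against 5.43% of all genes and 7.1% of the brighter ones), and SRF was higher (against 6.93% and 8.83%). None passed the adjusted threshold, which 0.248% of all genes did, and the median log2 difference was -0.06 beside 0.01 over all genes. Between 24 h and 4 h, 7 genes had all 24 h arrays below all 4 h arrays (20.6%, against 7.85% of all genes and 9.63% of the brighter ones) and 4 lay above (11.8%, against 7.35% and 9.43%). The unadjusted test gave 6 lower (17.6%, against 6.12% and 7.43%) and 3 higher (8.82%, against 5.2% and 6.18%). None of the 34 passed the adjusted threshold, which 0.142% of all genes did. The 3 comparisons share their arrays, so each comparison's values for a gene are given side by side below.

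**Figure D1:**
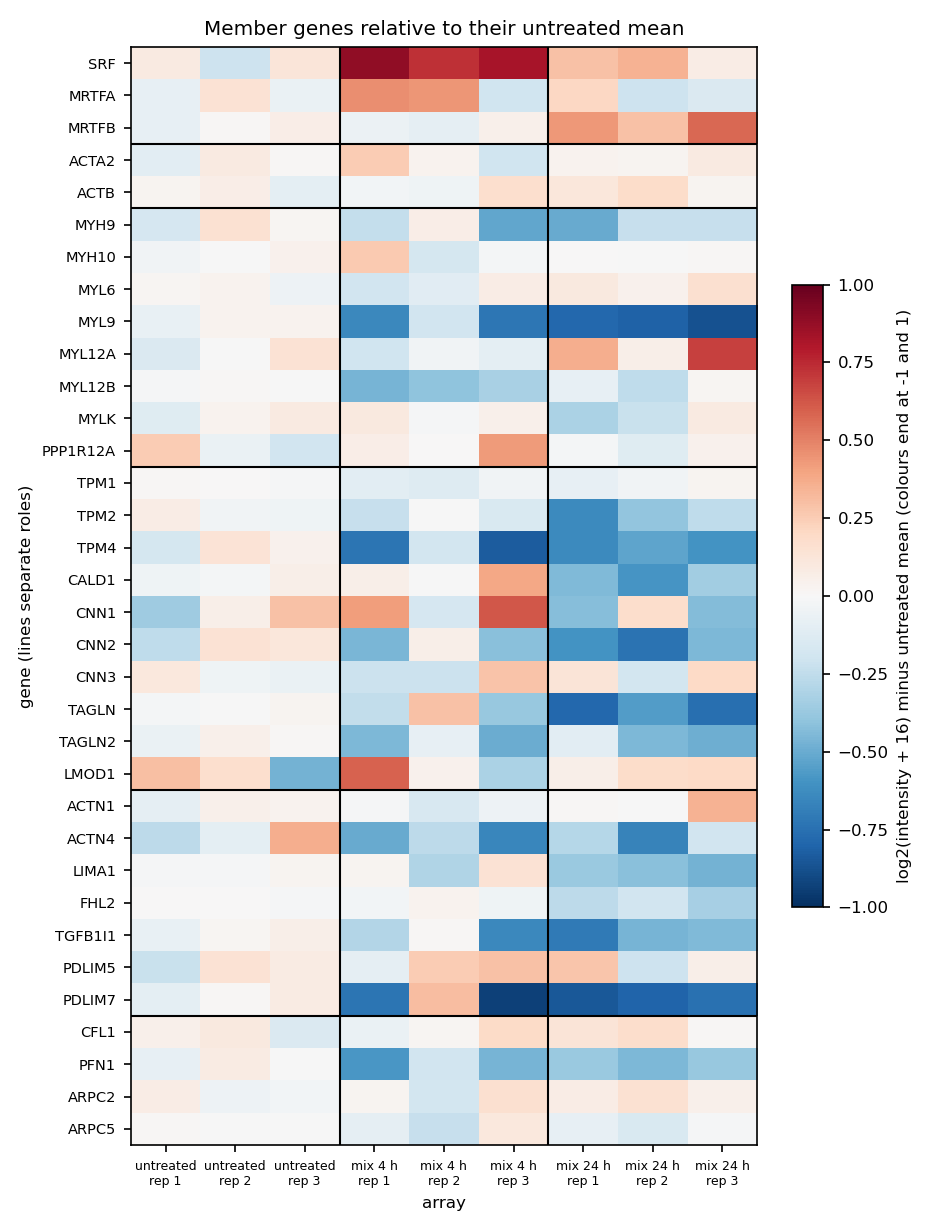
Log2(intensity + 16) of each of the 34 genes on each array, minus the gene's mean over the untreated arrays, with genes grouped by role and arrays from untreated through 4 h to 24 h. SRF is the deepest red row at 4 h, and blue cells at 24 h gather in the filament-binding and LIM-domain blocks, while replicate 2 of the 4 h group is paler than replicates 1 and 3 in MYL9, TPM4 and TGFB1I1.

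SRF and its coactivators each had a pattern of their own across the arrays. SRF measured 99.5, 78.2 and 102 on untreated arrays, 185, 164 and 176 at 4 h, and 117, 122 and 98.7 at 24 h. All 4 h arrays lay above all others, and the 24 h arrays overlapped the untreated ones. SRF at 4 h was 1.76-fold its untreated level (log2 difference 0.81, 95% interval 0.51 to 1.11, adjusted p = 0.0523), just short of the threshold, and at 24 h it was 0.671-fold its 4 h level (log2 difference -0.57, interval -0.87 to -0.28, adjusted p = 0.14). Against untreated cells the 24 h difference was 0.24 (interval -0.06 to 0.54, adjusted p = 0.431). The 4 h difference of SRF passed the adjusted threshold with a pseudocount of 64 (adjusted p = 0.0107) and with dim genes left out (adjusted p = 0.0168). It also passed with a spread that follows intensity (adjusted p = 0.0146). These settings also called more genes over the whole array than the fit used here. With the other settings SRF did not pass at 4 h, and with 1 array left out its adjusted p ran between 0.0641 and 0.195. A dimmer SRF probe set averaged 25.1 ± 12.0 at 4 h against 23.7 ± 8.31 untreated (log2 difference 0.03).

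MRTFA, the coactivator also known as MKL1 or MAL, measured 69, 83.3 and 69.9 on untreated arrays, 108, 106 and 62.2 at 4 h, and 87.6, 61.9 and 65.1 at 24 h. Its groups overlapped at both times, since 1 array of the 4 h group lay below all untreated ones (4 h log2 difference 0.24, interval -0.2 to 0.68, adjusted p = 0.688, and 24 h log2 difference -0.05, adjusted p = 0.936). MRTFB, the related coactivator, measured 82.0, 88.7 and 92.5 on untreated arrays, 83.7, 81.3 and 91.1 at 4 h, and 124, 111 and 138 at 24 h. Every 24 h array lay above every other array. MRTFB at 24 h was 1.35-fold its untreated level (log2 difference 0.43, interval 0.17 to 0.7, adjusted p = 0.124) and 1.38-fold its 4 h level (log2 difference 0.46, adjusted p = 0.174). By brightest probe sets, MRTFB was the single one of the 34 genes higher at 24 h by the unadjusted test, and SRF the single one at 4 h. A dimmer MRTFA probe set measured 38, 40.8 and 50.7 at 24 h against 27, 27.3 and 22.1 untreated (log2 difference 0.51, adjusted p = 0.145 over all probe sets). The other dimmer MRTFA probe sets stood at 0.62, 0.04 and 0.13 at 24 h. At 4 h the dimmer ones stood at 0.92, 0.29, -0.03 and -0.25.

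The actins, well-known SRF targets, did not separate between the groups by their brightest probe sets. ACTB, cytoplasmic beta-actin, measured 12792, 13185 and 11743 on untreated arrays, 12290, 12158 and 14109 at 4 h, and 13610, 14263 and 12800 at 24 h. ACTA2, smooth muscle alpha-actin and a marker of myofibroblasts, measured 504, 578 and 547 on untreated arrays, 649, 556 and 470 at 4 h, and 555, 553 and 577 at 24 h. Both overlapped between all groups. The 24 h log2 difference was 0.11 for ACTB (interval -0.15 to 0.37, adjusted p = 0.718) and 0.05 for ACTA2 (interval -0.25 to 0.35, adjusted p = 0.905), with intervals that hold differences of either sign. Another ACTB probe set measured 12091, 12825 and 11346 at 24 h against 11073, 11243 and 9445 untreated, higher on every 24 h array (log2 difference 0.19, adjusted p = 0.559 over all probe sets). The control probe sets of ACTB differed along the transcript. Their 5′ signal averaged 7462 ± 453 at 24 h against 8654 ± 809 untreated, and their 3′ signal averaged 10706 ± 89.9 at 24 h against 9688 ± 728 untreated (exact permutation p = 0.1 each). The ACTB probe sets read sequence that is near-identical in other actin genes, so their values are not certain to be ACTB alone.

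Among the 8 genes of myosin II and its control, MYL9 stood lowest relative to untreated cells. MYL9 encodes a regulatory light chain of myosin II found in smooth muscle and nonmuscle cells, and is a well-described SRF target. It measured 434, 471 and 471 on untreated arrays, 287, 399 and 272 at 4 h, and 259, 255 and 243 at 24 h. All 24 h arrays lay below all 4 h arrays, and these lay below all untreated ones. At 24 h MYL9 was 0.565-fold its untreated level (log2 difference -0.82, interval -1.15 to -0.49, adjusted p = 0.0502) and at 4 h 0.698-fold (log2 difference -0.52, interval -0.85 to -0.19, adjusted p = 0.21). Its 24 h value missed the threshold narrowly. It passed with a pseudocount of 64 (adjusted p = 0.0102), with dim genes left out (0.0186) and with untreated and 24 h arrays alone (0.036). It also passed with a spread that follows intensity (0.00448), without 4 h replicate 2 (0.0212) and without 4 h replicate 3 (0.0497). Each of these settings also called more genes over the whole array than the fit used here. MYL9 did not pass at 24 h with the other settings tried, and its adjusted p rose to 0.186 with 1 array left out. It is 1 of the 2 genes nearest the threshold, the other being SRF at 4 h. A dimmer MYL9 probe set averaged 38.3 ± 7.3 at 24 h against 36.8 ± 7.92 untreated (log2 difference 0.04).

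The paralogous regulatory light chains behaved unlike MYL9. MYL12B measured 3979, 4037 and 3989 on untreated arrays, 2894, 3020 and 3190 at 4 h, and 3778, 3352 and 4059 at 24 h. It was low at 4 h on every array and overlapped untreated cells at 24 h (4 h log2 difference -0.40, interval -0.65 to -0.14, adjusted p = 0.21, and 24 h -0.11, adjusted p = 0.722). MYL12A measured 759, 840 and 930 on untreated arrays, 730, 818 and 786 at 4 h, and 1085, 875 and 1358 at 24 h. Its 24 h arrays lay above all 4 h arrays (log2 difference 0.48, adjusted p = 0.317) and overlapped the untreated ones. MYL12A and MYL12B are close copies of each other, so a probe set may read both in part.

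MYL6, the essential light chain, measured 6595, 6652 and 6270 on untreated arrays, 5696, 6001 and 6834 at 4 h, and 6965, 6690 and 7263 at 24 h. Its 24 h arrays lay above the untreated ones by a small margin (log2 difference 0.1, interval -0.16 to 0.35, adjusted p = 0.74). MYH9, the heavy chain of nonmuscle myosin IIA, measured 827, 1034 and 944 on untreated arrays, 785, 974 and 644 at 4 h, and 652, 790 and 790 at 24 h. The 24 h arrays were below the untreated ones, with 4 h arrays spread over both ranges (24 h log2 difference -0.32, interval -0.7 to 0.06, adjusted p = 0.397). The other myosin II genes overlapped between all groups. MYH10, the heavy chain of myosin IIB, averaged 306 ± 8.97 in untreated cells, 314 ± 51.5 at 4 h and 308 ± 2.84 at 24 h. MYLK, the kinase that phosphorylates the regulatory light chain, averaged 1823 ± 138, 1879 ± 72.9 and 1654 ± 251 in untreated, 4 h and 24 h cells. PPP1R12A, the subunit that brings the opposing phosphatase to myosin, averaged 270 ± 46.5, 304 ± 53.0 and 261 ± 15.8 in the same order. Over the 8 genes the median 24 h log2 difference was -0.07, and 1 was lower by the unadjusted test, a share near that of all genes (7.62%, and 10.7% of the brighter ones).

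Of the 10 tropomyosins and other proteins bound along the filament, 6 lay lower at 24 h without overlap. Among all genes 12.2% did so, and 17.3% of the brighter ones. The median 24 h log2 difference of the 10 was -0.39. TAGLN, which encodes transgelin (SM22-alpha), an actin-binding protein of smooth muscle and stress fibres, measured 138, 140 and 143 on untreated arrays, 116, 176 and 104 at 4 h, and 74.8, 90.4 and 76.8 at 24 h. The 24 h arrays were lower than all others, while the 4 h arrays straddled the untreated ones. TAGLN at 24 h was 0.618-fold its untreated level (log2 difference -0.7, interval -1.08 to -0.31, adjusted p = 0.102) and 0.667-fold its 4 h level (log2 difference -0.58, adjusted p = 0.242). The call of TAGLN at 24 h was gained with a pseudocount of 64 (adjusted p = 0.0461) and with dim genes left out (0.044). It was also gained with untreated and 24 h arrays alone (0.0482), with a spread that follows intensity (0.04) and without 4 h replicate 2 (0.037). More genes over the whole array were also called with each of these settings. TAGLN was not called with the other settings tried, and its adjusted p rose to 0.258 with 1 array left out. TAGLN2, its paralog in nonmuscle cells, measured 3100, 3359 and 3271 on untreated arrays, 2375, 3063 and 2297 at 4 h, and 3013, 2366 and 2300 at 24 h. Both treated groups were below the untreated arrays, by a narrow margin in 1 array of each (24 h log2 difference -0.35, adjusted p = 0.308, and 4 h -0.34, adjusted p = 0.411).

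Tropomyosins are coiled coils that lie along the filament and govern which myosins can use it. TPM4 measured 846, 1058 and 989 on untreated arrays, 571, 843 and 531 at 4 h, and 611, 663 and 630 at 24 h. Both treated groups were below untreated cells, and 4 h replicate 2 lay just under the lowest untreated array (log2 difference -0.59 at either time, adjusted p = 0.147 at 24 h and 0.224 at 4 h). TPM2 measured 3049, 2832 and 2812 on untreated arrays, 2461, 2883 and 2603 at 4 h, and 1860, 2196 and 2426 at 24 h. The 24 h arrays were below all arrays of both other groups (24 h against untreated, log2 difference -0.43, interval -0.72 to -0.13, adjusted p = 0.154). TPM1 averaged 4151 ± 25.8 in untreated cells, 3901 ± 134 at 4 h and 4072 ± 156 at 24 h, with a 24 h log2 difference of -0.03 (interval -0.26 to 0.2). Its 24 h arrays overlapped the untreated ones, and its 4 h arrays lay below them by a small margin (log2 difference -0.09, adjusted p = 0.788).

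CALD1, caldesmon, which binds actin and tropomyosin and restrains myosin, measured 987, 1001 and 1060 on untreated arrays, 1057, 1012 and 1329 at 4 h, and 744, 670 and 794 at 24 h. The 24 h arrays lay below all others, while the 4 h arrays overlapped the untreated ones or lay above them. At 24 h CALD1 was 0.727-fold its untreated level (log2 difference -0.46, interval -0.76 to -0.16, adjusted p = 0.14) and 0.658-fold its 4 h level (log2 difference -0.6, interval -0.91 to -0.3, adjusted p = 0.129), the smallest adjusted p of the 34 genes in that comparison. CNN2, a calponin of nonmuscle cells, measured 497, 662 and 647 on untreated arrays, 430, 622 and 444 at 4 h, and 389, 352 and 434 at 24 h. Its 24 h arrays were below the untreated ones, and 4 h replicate 2 lay within the untreated range (24 h log2 difference -0.59, interval -0.99 to -0.2, adjusted p = 0.144). CNN3, another calponin, averaged 1236 ± 80.5 in untreated cells, 1210 ± 255 at 4 h and 1286 ± 175 at 24 h by its brightest probe set. CNN1 and LMOD1, the smooth muscle calponin and leiomodin, averaged 8.03 ± 5.27 and 12.6 ± 7.54 in untreated cells, near background, and their differences are not interpreted.

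**Figure D2:**
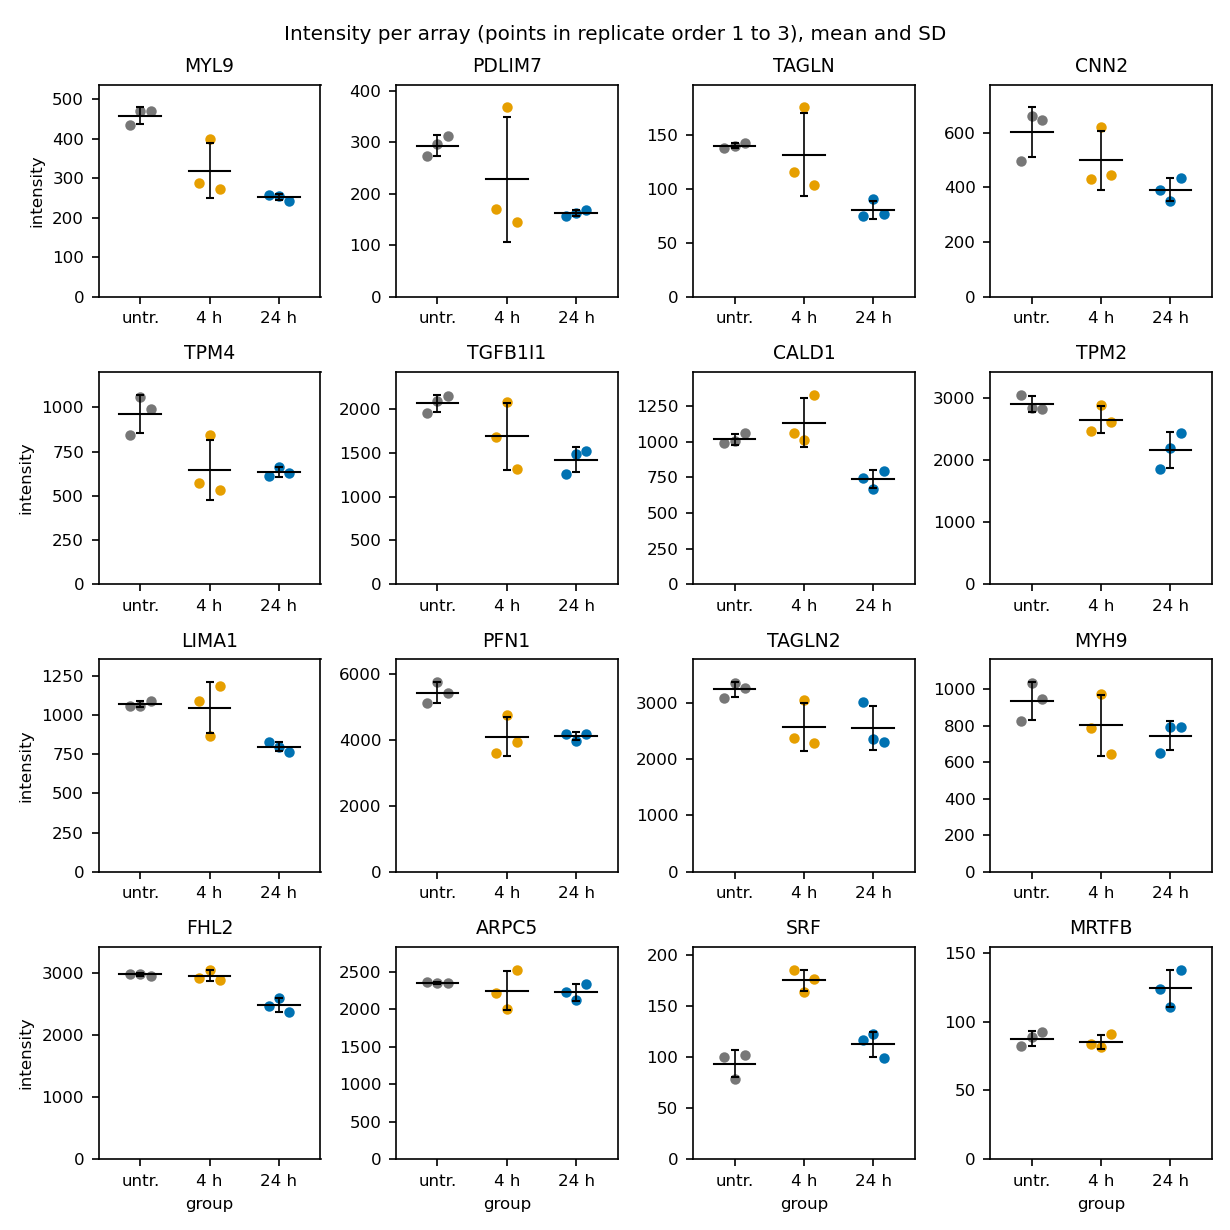
Linear intensity of the 14 genes whose 24 h arrays all lay below the untreated arrays, and of SRF and MRTFB, by group (untreated, mix 4 h, mix 24 h), with points for the 3 arrays and bars for mean and SD. MYL9 steps down over the groups, CALD1, LIMA1 and FHL2 are lower at 24 h alone, the 4 h points of PDLIM7 run between 146 and 368, and SRF peaks at 4 h.

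Of the 7 crosslinkers and LIM-domain proteins, 4 lay lower at 24 h without overlap. That pattern was found in 12.2% of all genes and 17.3% of the brighter ones. All 4 carry LIM zinc-finger domains, as does PDLIM5, which overlapped. PDLIM7 (Enigma), an adaptor at stress fibres, measured 273, 296 and 312 on untreated arrays, 170, 368 and 146 at 4 h, and 156, 162 and 168 at 24 h. At 24 h PDLIM7 was 0.575-fold its untreated level (log2 difference -0.8, interval -1.41 to -0.19, adjusted p = 0.192). Every 24 h array lay below every untreated one. At 4 h replicates 1 and 3 lay near the 24 h arrays and replicate 2 above all untreated ones. The 4 h log2 difference was -0.45 (adjusted p = 0.554) with replicate 2 and -0.84 (adjusted p = 0.0505) without it. The 24 h difference passed with untreated and 24 h arrays alone (adjusted p = 0.0409) and without 4 h replicate 2 (adjusted p = 0.0284). That array is not part of the comparison and enters it through the shared estimate of the spread. Both settings also called more genes over the whole array than the fit used here. With the other settings tried PDLIM7 did not pass, and its adjusted p rose to 0.389 with 1 array left out.

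TGFB1I1 (Hic-5), a focal adhesion adaptor induced by TGF-beta, measured 1956, 2093 and 2148 on untreated arrays, 1680, 2076 and 1313 at 4 h, and 1259, 1491 and 1518 at 24 h. The 24 h arrays were below the untreated ones and 4 h replicate 2 lay within the untreated range (24 h log2 difference -0.54, interval -0.91 to -0.16, adjusted p = 0.161). LIMA1 (EPLIN), which bundles and stabilises filaments, measured 1061, 1061 and 1091 on untreated arrays, 1089, 867 and 1186 at 4 h, and 826, 799 and 767 at 24 h. FHL2, a coregulator that binds SRF and focal adhesion proteins, measured 2990, 2994 and 2958 on untreated arrays, 2929, 3060 and 2886 at 4 h, and 2477, 2604 and 2370 at 24 h. Both LIMA1 and FHL2 were lower on every 24 h array than on any other array. Their 24 h log2 differences were -0.42 for LIMA1 (interval -0.72 to -0.12, adjusted p = 0.164) and -0.26 for FHL2 (interval -0.49 to -0.03, adjusted p = 0.253).

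The crosslinkers themselves did not separate from untreated cells by their brightest probe sets. ACTN1, alpha-actinin, averaged 3137 ± 162 in untreated cells, 2977 ± 156 at 4 h and 3423 ± 495 at 24 h. By its next brightest probe set ACTN1 lay higher on every treated array, at 2326, 2284 and 2596 at 4 h and 2302, 2591 and 2471 at 24 h against 2261, 2126 and 2072 untreated (24 h log2 difference 0.19, adjusted p = 0.523 over all probe sets). ACTN4, another alpha-actinin, averaged 1550 ± 368, 1100 ± 156 and 1176 ± 200 in the same order, with a 4 h log2 difference of -0.47 (interval -0.92 to -0.03, adjusted p = 0.374). PDLIM5, an alpha-actinin partner with LIM domains, averaged 442 ± 59.4, 494 ± 70.9 and 457 ± 79.4. The median 24 h log2 difference over the 7 genes was -0.38.

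Among the 4 genes of filament turnover, PFN1 measured lower at both times. PFN1, profilin, which loads actin monomers onto growing filaments, measured 5119, 5747 and 5412 on untreated arrays, 3606, 4743 and 3922 at 4 h, and 4176, 3971 and 4164 at 24 h. Neither treated group overlapped the untreated arrays (24 h log2 difference -0.4, interval -0.69 to -0.11, adjusted p = 0.17, and 4 h -0.41, interval -0.7 to -0.13, adjusted p = 0.239). ARPC5, a subunit of the Arp2/3 complex that nucleates branches, measured 2367, 2346 and 2345 on untreated arrays, 2213, 2000 and 2527 at 4 h, and 2221, 2114 and 2330 at 24 h. Its 24 h arrays were below the untreated ones by a margin smaller than the spread of the treated arrays (log2 difference -0.08, interval -0.35 to 0.18, adjusted p = 0.799). CFL1, cofilin, which severs filaments, averaged 8062 ± 683, 8352 ± 772 and 8662 ± 500 in untreated, 4 h and 24 h cells, and ARPC2, another subunit of that complex, averaged 6270 ± 299, 6306 ± 750 and 6685 ± 255. Both overlapped between all groups.

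**Figure D3:**
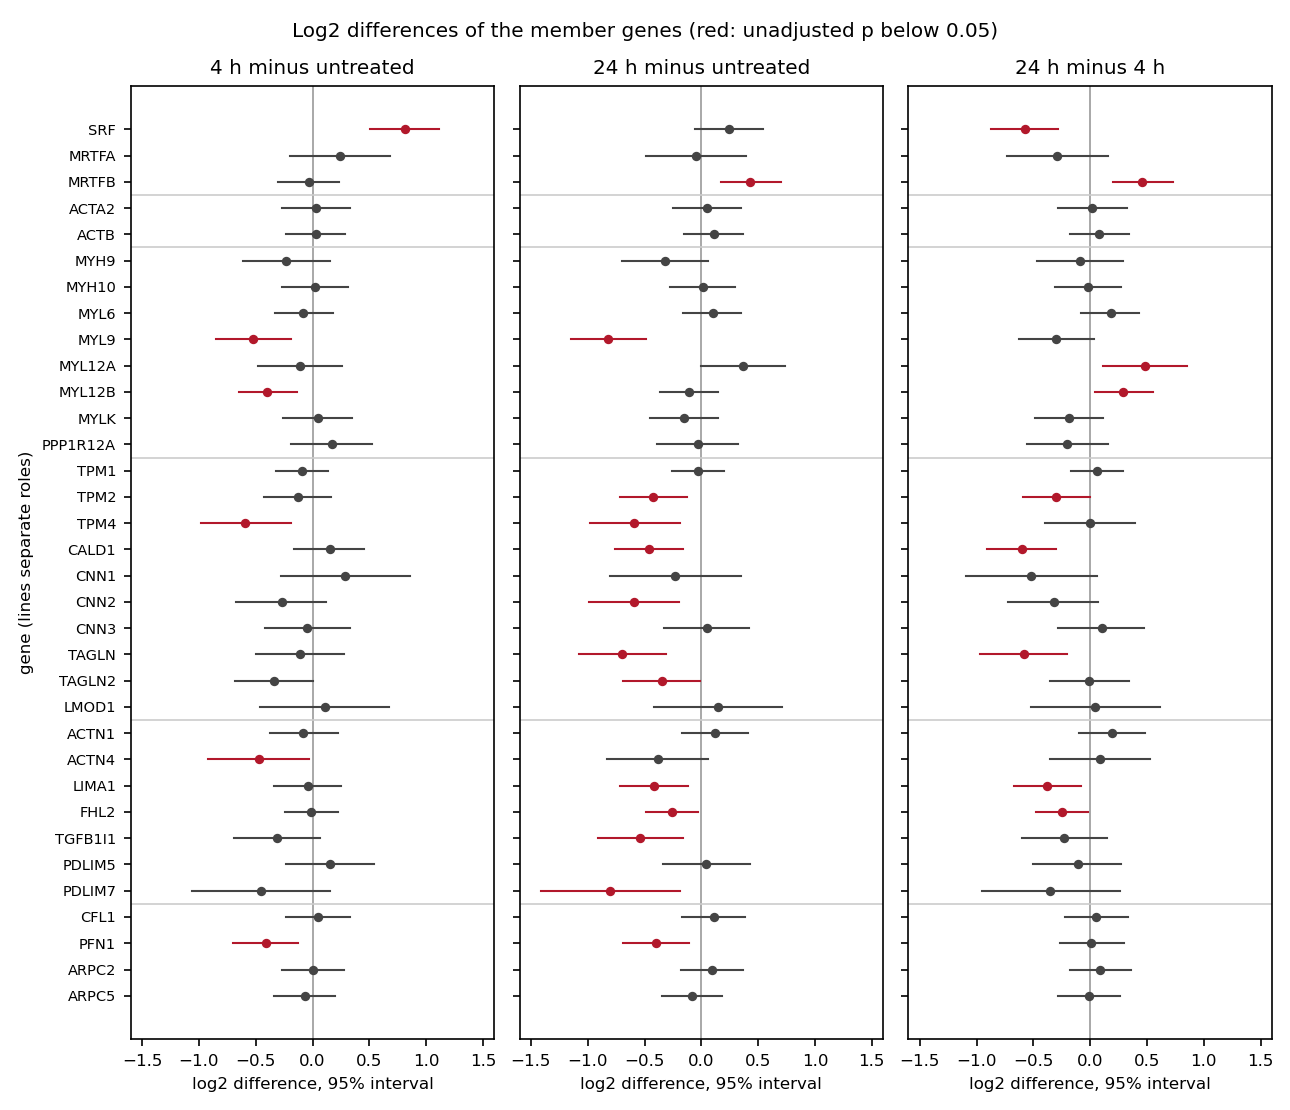
Log2 difference of each of the 34 genes with its 95% interval, in 3 panels for 4 h minus untreated, 24 h minus untreated and 24 h minus 4 h, with red marking an unadjusted p below 0.05. Red intervals lie left of 0 for 12 genes at 24 h and for 5 at 4 h, SRF stands to the right at 4 h and MRTFB at 24 h, and none of the 34 passed the adjusted threshold in any panel.

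Among the 4 h arrays, replicate 2 lay nearest the untreated arrays in both RNA measures. Its poly-A spikes stood at 10.03, beside 10.44 and 10.13 on replicates 1 and 3 and between 9.23 and 9.37 on untreated arrays. Over the 14 genes that lay lower at 24 h, the median log2 difference from the untreated mean was -0.27, -0.01 and -0.44 on 4 h replicates 1, 2 and 3. On the 24 h arrays it was -0.55, -0.46 and -0.44 and on untreated arrays -0.07, 0.02 and 0.03, values that follow from the choice of these 14. Replicate 2 of the 4 h group, with the ACTB ratio of 0.871, was the highest 4 h array for 11 of the 14 genes and for 2 of the other 20. It lay within the untreated range for 5 of the 14 and for 9 of the 20. Without it, the 4 h log2 difference was -0.68 for MYL9 (adjusted p = 0.0614), -0.79 for TPM4 (adjusted p = 0.0641), -0.53 for PFN1 (adjusted p = 0.0945), -0.31 for TAGLN (against -0.11 with it) and 0.85 for SRF (adjusted p = 0.0641). The part of RNA quality in these differences was not tested.

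**Figure D4:**
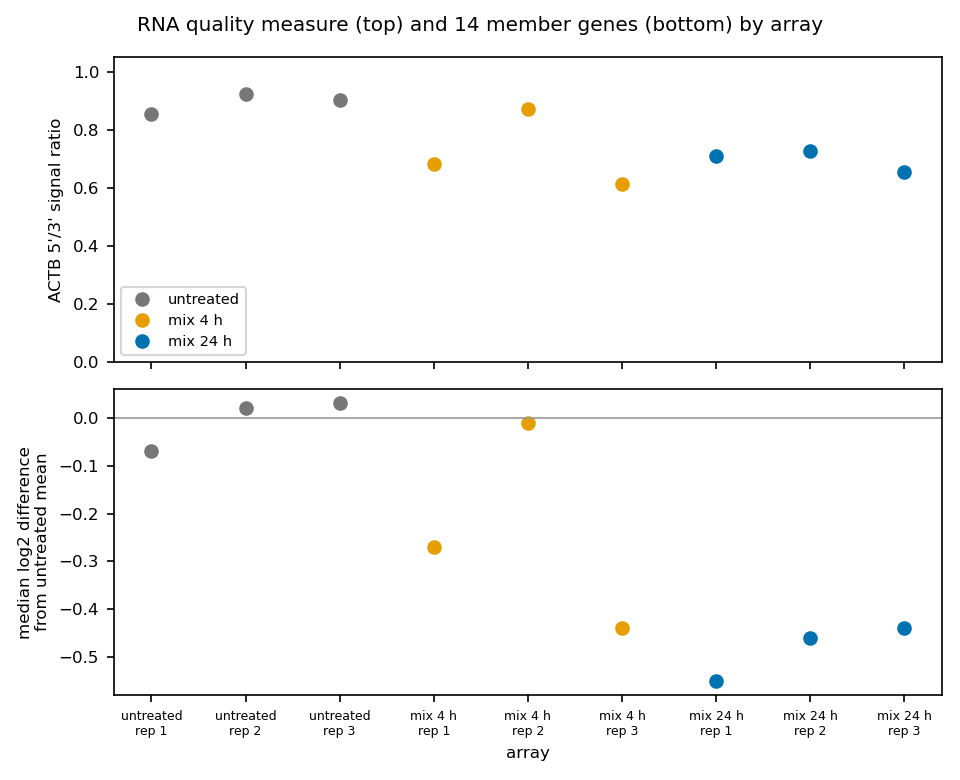
Ratio of 5′ to 3′ ACTB signal (top) and median log2 difference from the untreated mean over the 14 genes that lay lower at 24 h (bottom), 1 point per array. The ratio of 4 h replicate 2, 0.871, lies among the untreated arrays, as does its median of -0.01, while replicates 1 and 3 lie with lower values in both panels.

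Other probe sets of the same genes gave another reading of the RNA, although not independent ones, since they came from the same arrays. The 34 genes had 113 probe sets that name 1 gene, of which 62 had a geometric mean intensity above 64 and are called bright here, and 16 genes had more than 1 bright probe set. All 5 bright CALD1 probe sets were below 0 at 24 h (log2 differences -0.46, -0.79, -0.58, -0.74 and -0.06), as were all 3 of TPM4 (-0.59, -1.01 and -0.85), both of TAGLN (-0.7 and -0.87) and both of LIMA1 (-0.42 and -0.52). Others did not give a single answer. PDLIM7 had -0.8, -0.17 and -0.6. Its probe set at -0.17 overlapped, with 154, 125 and 138 at 24 h against 157, 184 and 136 untreated. The dimmer bright TAGLN2 probe set stood at -0.32 and overlapped at 24 h, with 1706 on 1 array against 1680 on 1 untreated array. For CNN3 the brighter probe set averaged 1286 ± 175 at 24 h against 1236 ± 80.5 untreated (log2 difference 0.05). The other CNN3 probe set averaged 687 ± 25.2 at 24 h against 1221 ± 187 untreated (log2 difference -0.81, adjusted p = 0.0851 over all probe sets). CFL1 had 0.11 and -0.28, PDLIM5 had 0.04 on its brightest and between -0.38 and -0.2 on the other 4, and PPP1R12A had -0.03, -0.13 and -0.45. In the other direction, 1 dimmer TPM1 probe set stood at 0.53 (264 ± 26.0 at 24 h and 178 ± 13.0 untreated) beside -0.03, -0.04 and -0.16 on the others, and 1 of 3 ARPC2 probe sets at 0.38. No probe set of the 34 genes passed the threshold adjusted over all probe sets. Where on each transcript these probe sets lie is not given in the files.

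**Figure D5:**
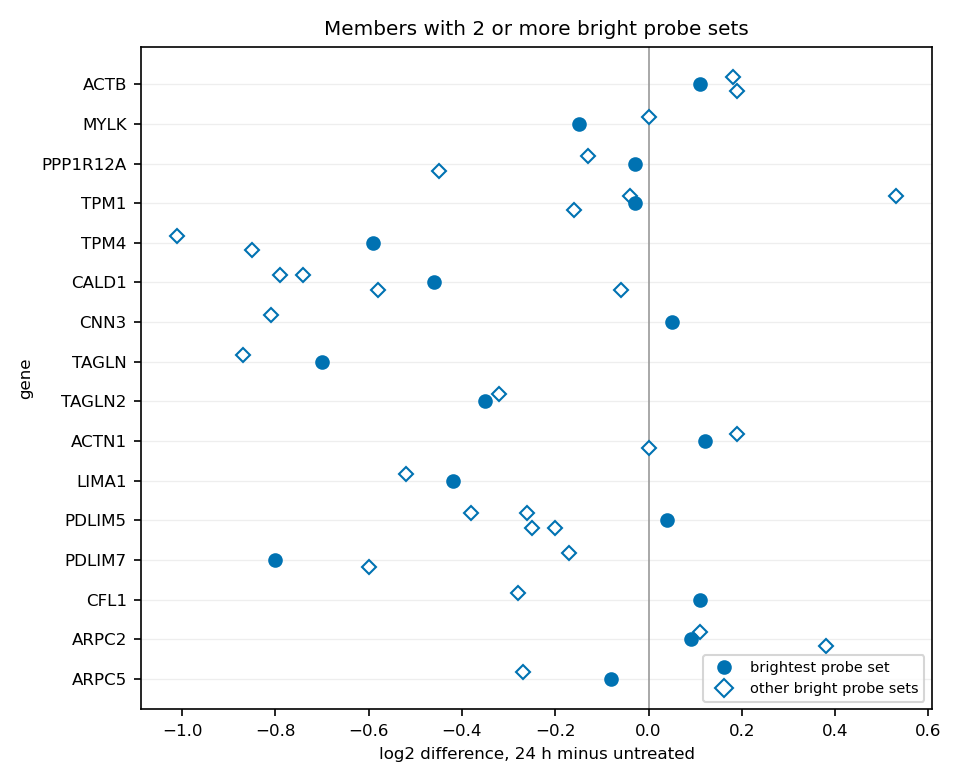
Log2 difference of 24 h minus untreated for each bright probe set of the 16 genes with more than 1, with filled points for the brightest and open diamonds for the others. CALD1, TPM4, TAGLN and LIMA1 keep to the left of 0, while CNN3 and CFL1 have probe sets on both sides.

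Genes with a CArG box in the window shown above did not form a group of one direction. At 24 h the 7 had a median log2 difference of -0.26, ranging between -0.59 for CNN2 and TPM4 and 0.24 for SRF, and 4 of 7 lay lower without overlap. The 24 genes whose window holds no box had a median of -0.04, and 8 of 24 lay lower without overlap, a pattern found in 12.2% of all genes and 17.3% of the brighter ones. At 4 h the medians were -0.08 and -0.05. These medians are descriptions of a few genes and were not tested against each other.

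Other genes that act with these were read from further lists. Of 19 measured further genes of actin filament turnover, none passed the adjusted threshold in any comparison. At 24 h 6 were lower and 1 higher by the unadjusted test (median -0.05). Of all genes 7.62% and 8.17% were, and 10.7% and 10.9% of the brighter ones. The 1 higher was MARCKS, which averaged 3.5 ± 2.69 in untreated cells and 10.3 ± 4.76 at 24 h, near background. TMSB4X, thymosin beta-4, which sequesters actin monomers, measured 366, 287 and 368 at 24 h against 603, 560 and 619 untreated (log2 difference -0.78, adjusted p = 0.0502). GSN, gelsolin, which severs and caps filaments, measured 205, 208 and 189 at 24 h against 281, 370 and 346 untreated (-0.68, adjusted p = 0.105), and FSCN1, fascin, a bundling protein of invasive protrusions, measured 531, 357 and 470 at 24 h against 717, 863 and 867 untreated (-0.84, adjusted p = 0.114). All 3 were lower on every 24 h array than on any untreated one, and the TMSB4X probe set may also read close copies of that gene. ARPC1A, another Arp2/3 subunit, had the smallest p of that list at 4 h (2121, 2143 and 2125 at 4 h against 2625, 2892 and 2651 untreated, log2 difference -0.35, adjusted p = 0.22).

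Of 30 measured SRF partners and other genes that SRF can regulate, 1 passed the adjusted threshold, at 4 h, which 0.248% of all genes did. TUFT1, which encodes tuftelin, measured 95, 94.6 and 114 on untreated arrays, 290, 207 and 254 at 4 h, and 137, 124 and 141 at 24 h. It rose 2.26-fold at 4 h (log2 difference 1.18, interval 0.85 to 1.5, adjusted p = 0.0226), and at 24 h it lay between the other groups (24 h against 4 h, log2 difference -0.82, adjusted p = 0.0746). CCN1, a matricellular protein gene responsive to SRF and to YAP, measured 956, 971 and 1157 on untreated arrays, 1679, 1860 and 1636 at 4 h, and 1204, 1015 and 1182 at 24 h. Like SRF and TUFT1, it was higher on every 4 h array than on any other (4 h log2 difference 0.74, adjusted p = 0.0612, and 24 h against 4 h -0.6, adjusted p = 0.116). JUNB, an immediate-early AP-1 gene, averaged 87.5 ± 25.3 in untreated cells, 128 ± 26.5 at 4 h and 72.5 ± 0.802 at 24 h (24 h against 4 h -0.68, adjusted p = 0.212). At 4 h this list held 5 genes higher and 0 lower by the unadjusted test (median -0.08). Of all genes 6.93% and 5.43% were, and 8.83% and 7.1% of the brighter ones. At 24 h against untreated it held 3 higher and 3 lower (median -0.14). Of all genes 8.17% and 7.62% were, and 10.9% and 10.7% of the brighter ones.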

How the data were processed

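Expression was measured on 9 arrays, 3 per group. The deposited values are linear intensities, 1 per probe set and array. Their trimmed mean is the same on every array, so the deposited intensities had already been scaled to it. R 2.9.2 and RMA are named, without a role, per the submitters' processing notes. The sources used here give no detection calls. Values were taken as log2(intensity + 16). Probe sets were named through the platform annotation, and each gene was read from its brightest probe set naming that gene alone, giving 19775 genes unfiltered. The linear model, with 1 mean for each group, used limma 3.58.1 (R 4.3.3) on the 9 arrays together, with p-values adjusted by Benjamini-Hochberg, two-sided, after the steps were tested on simulated data. Array measures had exact permutation tests. The members and lists were chosen with earlier results of these data known. Per-array values are given for genes whose 24 h and untreated arrays do not overlap and for SRF, MRTFA, MRTFB, ACTB, ACTA2 and MYL9. From the other lists, the 3 smallest p per comparison are named, and 1 of the lists is not reported here. MYL12A, MYL12B, TUFT1 and CCN1 are given per array for their values. Alternatives covered the pseudocount, probe sets, filter, scaling, spread model, replicate block and each left-out array. The number of arrays limits precision.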

Additional observations from a re-analysis of the deposited data

How the results depend on the processing

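The count of listed genes called changed with several settings. At 24 h against untreated, with 0 called in either direction, a pseudocount of 64 called 5 lower and 1 higher, leaving out genes below the 40th percentile called 2 lower, fitting untreated and 24 h arrays alone called 3 lower, and a spread that follows intensity called 9 lower. In the same order, 406, 289, 114 and 403 of all genes were called lower, against 49 with the fit used here. Leaving out 1 array at a time called between 0 and 3 listed genes lower. The 3 came without 4 h replicate 2, where 150 of all genes were lower. At 4 h against untreated, with 0 called, 1 gene was higher (SRF) with the pseudocount of 64, the filter or the intensity trend, and 1 was lower (MYL12B) with the pseudocount of 64 or the trend. At 24 h against 4 h, with 0 called, 2 were lower with the pseudocount of 64 (SRF and CALD1) and 1 with the trend (CALD1). The other counts of listed genes were 0 without each array in turn. The median log2 difference at 24 h, -0.09, became -0.17 with the mean over probe sets or with quantile normalization and ran between -0.12 and -0.04 with arrays left out. At 4 h it was -0.06, -0.01 with the mean over probe sets, and between -0.09 and -0.02 with arrays left out. At 24 h against 4 h it was -0.01, -0.09 with the mean over probe sets, -0.1 with quantile normalization, and between -0.09 and 0.0 with arrays left out. The difference in the ACTB ratio ran between -0.215 and -0.174 at 24 h, -0.244 and -0.116 at 4 h, and -0.08 and 0.048 for 24 h against 4 h.

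With the replicate number as a block, 0 of the listed genes were called in each comparison, as without it. Deviations of same-numbered arrays correlated between -0.044 and 0.057, and those of different-numbered arrays between -0.046 and 0.079. The labels do not say whether the numbers pair the samples, and these correlations cannot decide it. Over all genes the block gave 0 higher and 1 lower at 24 h, against 43 and 49 without it, 3 and 0 at 4 h, against 46 and 3, and 0 and 3 for 24 h against 4 h, against 5 and 23.

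Over all genes at 24 h, other settings gave 420 higher and 406 lower with a pseudocount of 64, 0 and 1 with a pseudocount of 1, 18 and 31 when probe sets were averaged, 288 and 289 with the filter, 86 and 114 with 2 groups alone, and 423 and 403 with the trend. At 4 h these were 184 and 89, 6 and 0, 25 and 1, 142 and 35, 2 and 0, and 179 and 71, with 28 and 4 under quantile normalization and 16 and 2 under median centring. For 24 h against 4 h they were 105 and 146, 2 and 7, 5 and 23, 41 and 84, 0 and 1, and 92 and 123, with 9 and 25 under quantile normalization and 6 and 14 under median centring. Leaving out 1 array gave 0 to 106 higher and 0 to 150 lower at 24 h. The cause was not tested. Of 504 values of listed genes with an unadjusted p below 0.05 recomputed under an alternative, 0 changed sign. Part of these could not change, since several alternatives leave the log2 difference as it is. These are the filter, the trend, the 2 groups alone, the replicate block and leaving out an array of the group not compared. Signals near 16 cannot be told from background, which limits CNN1 and LMOD1.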
